A study of Rattus norvegicus with 2 samples.

Results

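Histone modifiers and chromatin remodellers were followed in the hypothalamic paraventricular nucleus of adult rats exposed to dexamethasone before birth. The members were all probes whose gene name in the array files begins with Hdac, Sirt, Kdm, Jmjd, Setd, Ezh, Suv, Ehmt, Mll, Prmt or Smarc, or with Kat or Chd and a digit. This gave 88 of 26269 gene names, read by 111 of 30367 probes. Each of the 2 arrays carried labelled RNA from male Sprague Dawley offspring aged 12 weeks. The control array held RNA of offspring whose mothers received vehicle. The dexamethasone array held RNA of offspring whose mothers received dexamethasone at 200 µg/kg during the third trimester. Dexamethasone is a synthetic glucocorticoid. The number of animals behind each array is not stated in the labels. With 1 array per group there is no replicate check and no p-value, and every difference below is one between these 2 arrays.

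DNA in the nucleus is wound on histones, and enzymes that add or remove acetyl and methyl groups on histone tails mark stretches of chromatin as open or closed to transcription. Acetyltransferases and deacetylases act on lysines. Methyltransferases and demethylases act on lysines or arginines, and, depending on the residue, their marks go with active genes, with Polycomb repression or with compact heterochromatin. Remodellers of the SWI/SNF, ISWI and CHD families use ATP to slide or evict nucleosomes. Several of these enzymes also act on proteins other than histones.

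The prefix rule brought in names that are not histone modifiers. Kat3 is described in the files as kynurenine aminotransferase III, an enzyme of tryptophan breakdown now named Kyat3. The Mllt genes are fusion partners of the MLL methyltransferase in leukaemia and are not methyltransferases themselves. Smarce1l corresponds to a Smarce1 pseudogene in RefSeq. These stayed among the members and are described apart from the enzyme families. The families themselves are groups by name prefix. They therefore also hold genes whose named activity is not that of the family, such as Jmjd4 and Setd3 below.

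The values below are fluorescence of 60-base probes, and those that carry the main differences are shown here, because each value stands or falls with its probe. Hdac10 and Suv420h2 were each read by a single probe, so their differences could not be compared with a second probe. The first 30 of the 60 bases are printed for these, in lower case.
Hdac10: ggggccgaattctagctttagtggaagagg
Suv420h2: aatggggtatgatgggggattggaagaact
Smarcc1 had 3 probes that did not move alike, again shown by their first 30 bases. The probe labelled A starts at base 406 of its transcript, B at base 3335 and C at base 3527. B was designed on an Ensembl transcript and A and C on a RefSeq transcript, so the base numbers of B and C cannot be set against each other.
Smarcc1 probe A: tttcatggatttcaaagctggaggcacctt
Smarcc1 probe B: cctgcagatggggtccctccacctcctgtt
Smarcc1 probe C: ctacagagcaagctccaggacagccaatgc
Suv39h1 was read by a pair of probes that adjoin on the transcript, the first starting at base 1366 and the other at base 1425. Both are printed whole, and the capital marks the 1 base that they share.
Suv39h1 probe starting at base 1366: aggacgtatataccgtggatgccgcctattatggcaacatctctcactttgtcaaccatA
Suv39h1 probe starting at base 1425: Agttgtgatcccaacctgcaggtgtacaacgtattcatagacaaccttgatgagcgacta

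The arrays were alike in detection, with 79.5% (control) and 78.2% (dexamethasone) of probes well above background. They differed in markers of brain regions. All 12 measured markers of cortex and striatum had more signal under dexamethasone (median log2 difference 1.71, summed signal 9641 against 34041). Of 13 thalamic markers, 12 were lower (median -0.91, summed signal 159790 against 93355). Of 6 measured markers of the paraventricular nucleus itself, 2 were higher and 4 lower (median -0.28). Avp, which encodes vasopressin, was at -1.91, Oxt (oxytocin) at -1.38, Sim1 at -0.31 and Trh at -0.24. The Sim1 probe was dim, with signals of 14.1 (control) and 12.0 (dexamethasone). Crh (corticotropin-releasing hormone) was at 1.39 and Pou3f2 at 0.24. Otp was not well above background on the control array. Oligodendrocyte markers had a median of 0.29 (7 of 8 higher), astrocyte markers 0.25 (5 of 7 higher), microglial markers 0.04 (5 of 8 higher), endothelial markers -0.03 (2 of 6 higher), choroid plexus markers 0.32 (4 of 6 higher) and cell division genes 0.15 (5 of 6 higher). The part of these differences in the results below was not tested. In tissue RNA, fewer cells of a type and less RNA per cell cannot be told apart.

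Nearly all chromatin enzymes were measurable, and most differed little between the arrays. Of the 111 member probes, 108 were well above background on both arrays and 3 on neither, the probes of Hdac2 and Smarce1l and 1 of 3 probes of Suv39h1. Log2 differences below are dexamethasone minus control after each array was scaled to its 75th percentile, and signals are the unscaled processed intensities. No probe of the 108 reached 2-fold in the higher direction, and 2 reached it in the lower one, Suv420h2 and Hdac10. Among all 23322 probes well above background, 2.67% were past 2-fold higher, 3.17% past 2-fold lower, and thus 5.84% past it in either direction. The count of lower members was therefore near the background share, and that of higher members below it by a few probes. The median member difference was -0.0059, beside 0.02 for all probes, with 53 members above 0 and 55 below. Of all probes, 12156 were above 0 and 11166 below.

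The members were less spread than the array as a whole, mainly on the higher side. Their differences had an SD of 0.33 and ran from -1.44 to 0.53, against an SD of 0.53 and a span of -3.56 to 6.99 for all probes. At a smaller size of 0.5 log2, 1 member probe was higher and 10 were lower (0.926% and 9.26%), where 7.89% and 10.4% of all probes were (18.3% either way). These counts depend on the processing. With normexp background correction the higher probe, of Suv39h1, came to 0.12. Ezh2 (-0.38), the lower Setdb1 probe (-0.42), Jmjd4 (-0.16), Kdm2b (-0.42) and the lower Suv39h1 probe (-0.23) also came within 0.5 log2. Suv420h2, Hdac10, Smarcc1 probe C, Hdac7 and Setd4 stayed lower by more than that. The share of all probes past 0.5 log2 was not computed with normexp, so the members left have no background share beside them. Members were brighter than most probes, 70 of 108 lying in the brighter part above the array's median signal. Within that part the SD was 0.33 for members and 0.44 for all probes, with 0 members higher by 0.5 log2 and 5 lower (7.14%), near the 6.10% lower among all bright probes, of which 5.33% were higher. Among dimmer probes it was 0.33 for members and 0.61 for all.

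**Figure D1:**
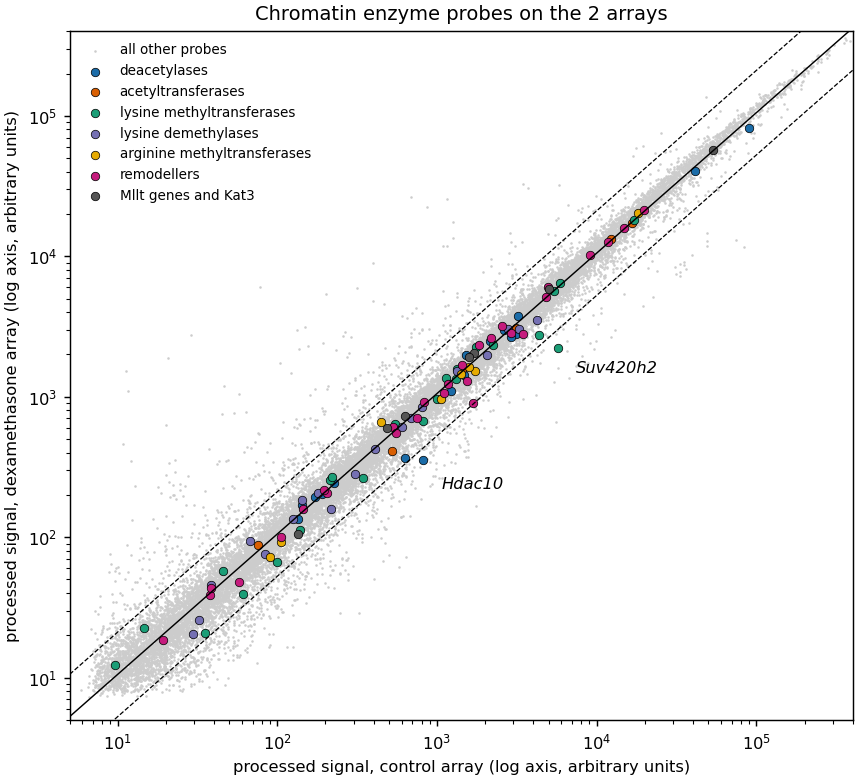
Processed signal of each probe on the control array (x, log axis) and the dexamethasone array (y, log axis), for all probes well above background on both arrays (grey) and for the 108 member probes coloured by enzyme family. The solid line is equality after scaling and the dashed lines are 2-fold; Suv420h2 and Hdac10 lie below the lower dashed line and no member lies above the upper one.

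Among deacetylases, which remove acetyl groups from lysines, Hdac10 stood lowest. Hdac10, a class II enzyme known for deacetylating polyamines in the cytoplasm, had a control signal of 818 and a dexamethasone signal of 353. After scaling it was 2.45-fold lower (log2 difference -1.29, error 0.20). The error is the scanner software's own estimate for a single spot, which covers measurement within the arrays alone. Over members its lowest value and its median were both 0.20, so it is not a spread observed for each probe. Over 1315 probes with repeated spots, the median spot SD of a difference was 0.08. The Hdac10 probe lies on rn4 chromosome 7, 127424110 to 127424261, minus strand, a span longer than the 60 bases of the probe. Hdac7, a class IIa enzyme that represses MEF2 targets and is prominent in endothelium and thymocytes, went from 629 to 364 (-0.87 ± 0.20). It stayed short of 2-fold. Outside the name rule, 2 probes described as Hdac7 were at -0.77 and 0.10, so its probes did not all move alike. The 6 endothelial markers had a median of -0.03.

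The other deacetylases lay close to equality. The class I enzymes, catalytic subunits of the large corepressor complexes, were at 0.16 (Hdac1), -0.24 (Hdac3) and 0.08 (Hdac8). All 3 probes of Hdac1 were slightly higher, from 0.02 to 0.16. Hdac2, a close relative of Hdac1, had signals of 1.97 (control) and 2.03 (dexamethasone), not well above background on either, so its probe gave no difference. Hdac4 and Hdac5, class IIa enzymes that shuttle between nucleus and cytoplasm in neurons, were at 0.0041 and -0.23. Hdac6, the tubulin deacetylase, was at -0.14 and Hdac11, the single class IV enzyme, at -0.22.

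The 6 member sirtuins, NAD-dependent deacylases, were all within 0.5 log2 of equality. Sirt2, a tubulin deacetylase abundant in oligodendrocytes, was highest, with a signal of 1515 against 1987 (0.32 ± 0.20). Beside it, the 8 oligodendrocyte markers had a median of 0.29. The mitochondrial members Sirt3, Sirt4 and Sirt5 were at 0.10, -0.09 and -0.10. The nuclear members Sirt6 and Sirt7 were at -0.21 and 0.18. Over the 15 measured deacetylase genes the median was -0.10, with 6 higher and 9 lower.

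Acetyltransferases, which acetylate histone tails at active genes, differed little. Kat2a, the GCN5 enzyme of the SAGA and ATAC complexes, was lowest at -0.42, from a signal of 522 to 411. Kat5 (Tip60), a NuA4 enzyme that also acts in DNA repair, was at -0.02 and -0.07 on its 2 probes. Kat7 (HBO1) was at 0.03, Kat8 (MOF), which acetylates histone H4, at 0.07, and Kat6a (MOZ) at 0.13. No gene of the 5 reached 0.5 log2 either way.

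Lysine methyltransferases held the largest member difference. Suv420h2, now named Kmt5c, trimethylates histone H4 in heterochromatin. Its signal went from 5690 to 2217, and after scaling it was 2.70-fold lower (-1.44 ± 0.20). Its probe lies on rn4 chromosome 1, 67815981 to 67816040, minus strand. Its paralog Suv420h1 (Kmt5b), which acts on the same histone H4 lysine, was slightly higher on both of its probes, each present as 10 spots per array. Spots of 1 array are technical repeats, and their control ranges are given here after scaling to the dexamethasone array. One Suv420h1 probe read 1129 to 1234 on the control spots and 1251 to 1446 on the dexamethasone spots, ranges that did not overlap (0.18 ± 0.02, SE over spots). The other read 211 to 248 and 246 to 284, ranges that met at the ends (0.21 ± 0.03).

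The enzymes of histone H3 lysine methylation at heterochromatin were mixed. Setdb1, which silences retroelements, was lower on both probes, from 139 to 112 (-0.38) and from 60.7 to 39.5 (-0.70). Suv39h1, the founding enzyme of the class, was at -0.84 (35.4 to 20.9) on one probe and at 0.53 (14.7 to 22.4) on the adjoining one. Its probes therefore set no direction for the gene. Suv39h2, a paralog, was dim, at 9.56 and 12.3 (0.29, error 0.37). Ehmt1 and Ehmt2, which form the heterodimer that methylates the same residue in euchromatin, were at 0.16 and -0.06. The scaled spot ranges of Ehmt1 overlapped (1340 to 1526 and 1497 to 1726).

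Ezh2, the catalytic subunit of the Polycomb repressive complex in dividing cells, was at -0.65 (99.2 to 66.4). Ezh1, its counterpart in postmitotic cells, was at 0.0018 and 0.26 on its 2 probes. Beside Ezh2, the 6 measured cell division genes had a median of 0.15 and ran from -0.03 (Birc5) to 0.87 (Top2a).

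Of the SET-domain genes, Setd4, a lysine methyltransferase, was lowest, from 4355 to 2755 (-0.74 ± 0.20). Setd5, a chromatin regulator tied to intellectual disability, was at -0.35, and Setd2, which trimethylates histone H3 along transcribed genes, at 0.16. Setd7, first described as a histone H3 methyltransferase, was at 0.18 and Setd3, a histidine methyltransferase of actin, at 0.06. Setd3 had a further probe at -0.02. Setd6, which methylates a subunit of NF-kappaB, read 1033 to 1077 on the scaled control spots and 924 to 1005 on the dexamethasone spots (-0.13 ± 0.01, SE over spots). These ranges did not overlap, while the unscaled control spots (980 to 1022) did overlap the dexamethasone spots, so the separation rests on the scaling. Mll4 (Kmt2b), a trithorax-type enzyme of active promoters, was at -0.46. Mll5 (Kmt2e), a relative with no clear catalytic activity, was at -0.0014 and 0.28 on its 2 probes. Over the 17 measured genes of the family, grouped by prefix and thus with Setd3, the median was -0.06, with 7 higher and 10 lower. By their brightest probe 4 were lower by at least 0.5 log2, where 10.4% of all genes were. Of these 4, Suv39h1 had probes that disagreed, and Ezh2 came to -0.38 with normexp background correction.

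Among arginine methyltransferases, Prmt8 and Prmt1 were higher and the others lower, by at most 0.41. Prmt8, a membrane-bound enzyme found almost only in neurons, was the highest member gene, from 447 to 663 (0.49 ± 0.20). Between the same arrays the cortex and striatum markers had a median difference of 1.71 and the thalamic markers one of -0.91. Whether either bears on Prmt8 was not tested. Prmt6, which methylates histone H3, was lowest, at -0.41 (90.4 to 71.8). Prmt2 and Prmt3 were both at -0.26, Prmt7 at -0.20, and Prmt5, the main symmetric enzyme, at -0.04. Prmt10 (Prmt9) was at -0.04. Prmt1, the main asymmetric enzyme, was at 0.10. Of 8 genes, 2 were higher and 6 lower, where 10524 of all 20145 measured genes were higher and 9621 lower. Prmt1, Prmt5 and Prmt10 lay within the software error of 0.20.

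The lysine demethylase family, grouped by the prefixes Kdm and Jmjd, ran from -0.60 to 0.41. Kdm4a, a jumonji demethylase of histone H3, was highest at 0.41 (67.1 to 93.8), or 0.20 with no background correction, followed by Jmjd7 at 0.27 and the Kdm4d-like gene Kdm4dl at 0.18. Lowest were Jmjd4, a hydroxylase of a translation termination factor, at -0.60 (29.5 to 20.5), and Kdm2b, which brings Polycomb complexes to CpG islands, at -0.52 (216 to 159). Jmjd5 (Kdm8) was at -0.33. The flavin-dependent enzymes Kdm1a (LSD1) and Kdm1b were at -0.11 and 0.0011. Kdm2a was lower on both probes (-0.19 and -0.40), and Kdm3a and Kdm4d were at -0.02 and -0.23. Kdm5b, which acts on marks of active promoters, was at 0.12. Kdm6b, which removes the Polycomb mark, had overlapping spots, 692 to 743 on the scaled control array and 677 to 734 on the dexamethasone array (-0.02 ± 0.02, SE over spots). Of 16 genes, 6 were higher and 10 lower (median -0.04).

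Remodellers had the smallest spread of the 6 families by gene (SD 0.19), with all 19 gene values between -0.38 and 0.25. This holds for the brightest probe of each gene, which for Smarcc1 was at 0.19 while its probe C was at -0.97. By probe the SD was 0.25 for remodellers and 0.20 for acetyltransferases. The SWI/SNF ATPases Smarca4 (BRG1) and Smarca2 (BRM) were at 0.04 and 0.02. The Smarca2 spots overlapped, from 12065 to 12914 on the scaled control array and from 11715 to 13385 on the dexamethasone array. Core subunits were at 0.21 (Smarcb1) and 0.09 (Smarce1), and Smarcd1, Smarcd2 and Smarcd3, alternative subunits that differ between tissues, were at 0.10, 0.02 and -0.38. Smarcd3, the lowest of the family, went from 3455 to 2792.

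Among the other ATPases, the ISWI enzymes Smarca5 and Smarca1 were at -0.11 and -0.01. The Smarca5 spots, 2960 to 3197 after scaling and 2687 to 2937, did not overlap, while the unscaled control spots (2809 to 3034) did overlap the dexamethasone spots. Smarcad1 and Smarcal1, which act at replicating or damaged DNA, were at -0.35 and -0.18. The NuRD ATPases Chd3, Chd4 and Chd5 were at 0.25, 0.02 and -0.15. Chd1, which travels with elongating RNA polymerase, was at 0.11, Chd2 at 0.16 on its brightest probe, Chd6 at -0.32, and Chd8, known from autism genetics, at -0.06. Chd1 and Chd2 also had probes of the opposite sign, down to -0.12 and -0.13. The family median was 0.02, with 11 genes higher and 8 lower.

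The names set apart also differed little. Mllt1 and Mllt3, readers of acylated histones in the elongation complex, were at 0.16 and 0.18. Mllt10, a cofactor of the methyltransferase Dot1l, was at -0.45, Mllt11 at 0.01, and Mllt4, the adhesion protein afadin, at 0.19. Kat3 was at 0.13.

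**Figure D2:**
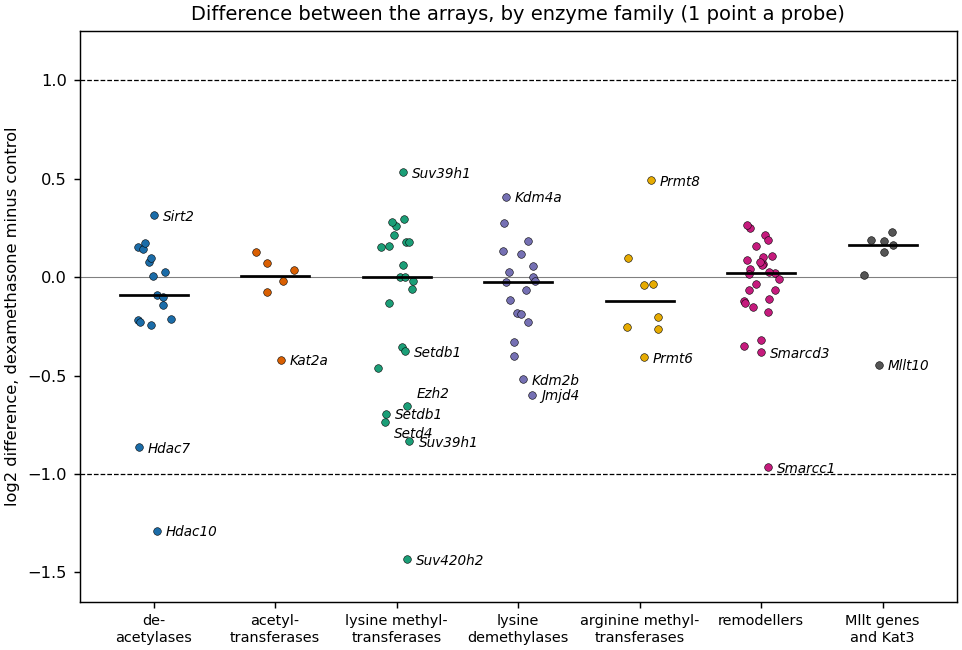
Log2 difference (dexamethasone minus control) of each member probe well above background, by enzyme family, with the median over its probes as a bar and 2-fold as dashed lines. Points of all families gather around 0, Hdac10 and Suv420h2 are the 2 points past 2-fold, and 10 points lie below -0.5 against 1 above 0.5.

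Genes with several probes gave a measure of how far a value depends on its probe. Of 19 such genes, 17 had probes within 0.5 log2 of each other and 13 within 0.25. Suv39h1 and Smarcc1 were the exceptions, 1.37 and 1.16 apart. Only probes under member names were counted. Probes under transcript names also disagreed for Hdac7 (-0.77 and 0.10, beside -0.87 for its member probe) and Sirt1 (-0.83 and -0.14). Smarcc1 encodes a core scaffold subunit of SWI/SNF. Its probe C went from 1669 to 899 (-0.97), while probe B went from 2171 to 2609 (0.19) and probe A from 144 to 158 (0.06). Probes B and C lie 1.9 kb apart on rn4 chromosome 8 (114611604 to 114611663 and 114609708 to 114609767). Both were bright, and whether they read different transcripts of the gene was not tested. Smarce1, whose probes were 0.01 apart, is among the 19 genes, but its probes are placed on different rn4 chromosomes, 10 and 19. Whether they read the same gene was not tested. Apart from such cases, probes of 1 gene share a target, and they are not replicates of the treatment.

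**Figure D3:**
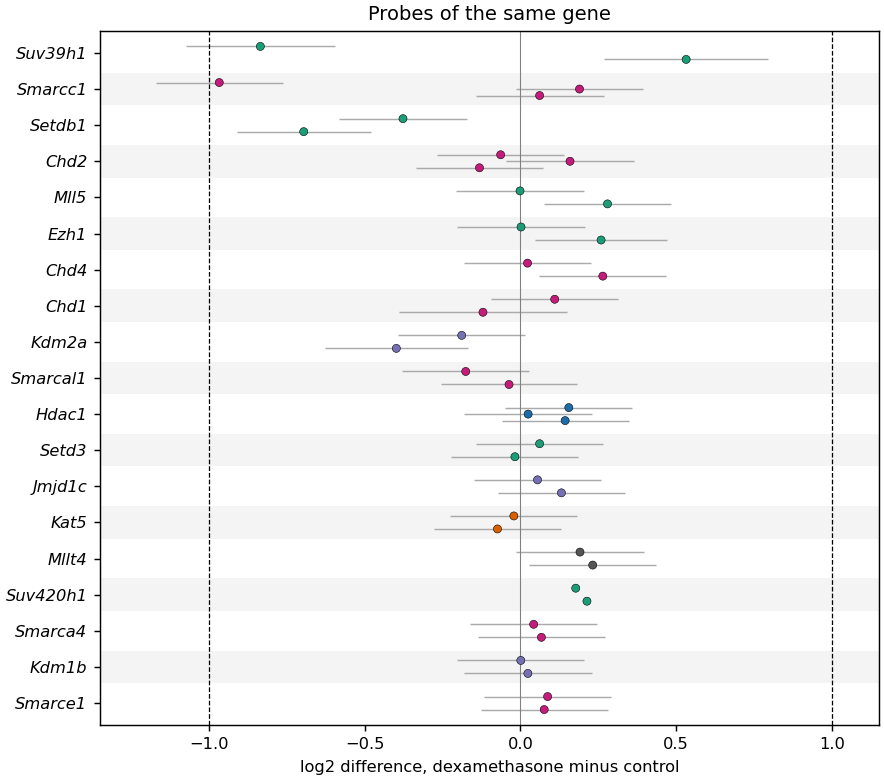
Log2 difference of each probe for the 19 member genes with several probes well above background, 1 point a probe (coloured by enzyme family as in the plot by family), with bars for the scanner software's error of a single spot (none for Suv420h1, which has 10 spots a probe). Suv39h1 and Smarcc1 have probes on both sides of 0 more than 1 log2 unit apart, while the probes of most other genes overlap within their bars.

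Probes that the name rule missed carried further values for the same enzymes. Outside it, 2 probes under transcript names are described as Hdac7, at -0.77 (58.0 to 35.8) and 0.10 (174 to 197), beside -0.87 for the member probe. Sirt1, the best known nuclear sirtuin, was also listed under transcript names, at -0.83 (83.6 to 49.5) and -0.14 (41.6 to 39.7). Of these dim probes, the Hdac7 one moved to -0.38 and the lower Sirt1 one to -0.46 with normexp background correction. Hdac9 was at -0.12 and Kdm4b at -0.33. Of the remaining probes, the lower ones were Setmar (-0.19), an NSD2 transcript (-0.15), Jarid1a (-0.13) and a Chd1-like transcript (-0.08). The higher ones were a MYST-type acetyltransferase (0.22), Kdm5c (0.10), an Hdac1 transcript (0.085) and a jumonji 1B-like gene (0.05). These probes were found by their descriptions after the member values were seen.

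Other chromatin genes, taken from a list of partners, readers and enzymes with other names, also differed little as a group. Of 85 measured genes, 1 was at least 2-fold higher and 0 were lower, with a median of 0.08 and 50 genes above 0. By the same value per gene, 0 of 86 member genes were higher and 2 lower (median -0.02), where 2.73% and 3.22% of all 20145 genes were (5.95% either way). The partners of Ezh2 in the Polycomb repressive complex were at -0.06 (Eed), 0.04 (Rbbp4) and 0.24 (Rbbp7), and its accessory proteins were mixed, at -0.70 (Phf1), -0.34 (Phf19), 0.12 (Mtf2) and 0.29 (Aebp2). Of the subunits specific to neuronal SWI/SNF complexes, Actl6b was at 0.42, Dpf1 at 0.24, Dpf3 at 0.42 and Ss18l1 at 0.27. Their counterparts in progenitors, Actl6a, Phf10 and Ss18, were at -0.11, 0.07 and 0.27. Dot1l, which methylates the core of histone H3, was at -0.68 on its brighter probe and -0.07 on the other.

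The largest member differences were compared across processings. Suv420h2 ranged from -1.48 to -1.40 and Hdac10 from -1.30 to -1.13, so both stayed past 2-fold. Smarcc1 probe C (-0.996 to -0.924), Hdac7 (-0.87 to -0.80) and Setd4 (-0.78 to -0.72) stayed short of it. The dimmer probes moved more. Ezh2 ranged from -0.65 to -0.38, the lower Setdb1 probe from -0.70 to -0.38, Jmjd4 from -0.60 to -0.16, and the lower Suv39h1 probe from -0.84 to -0.23, in each case closest to 0 when background was corrected by normexp or not at all.

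**Figure D4:**
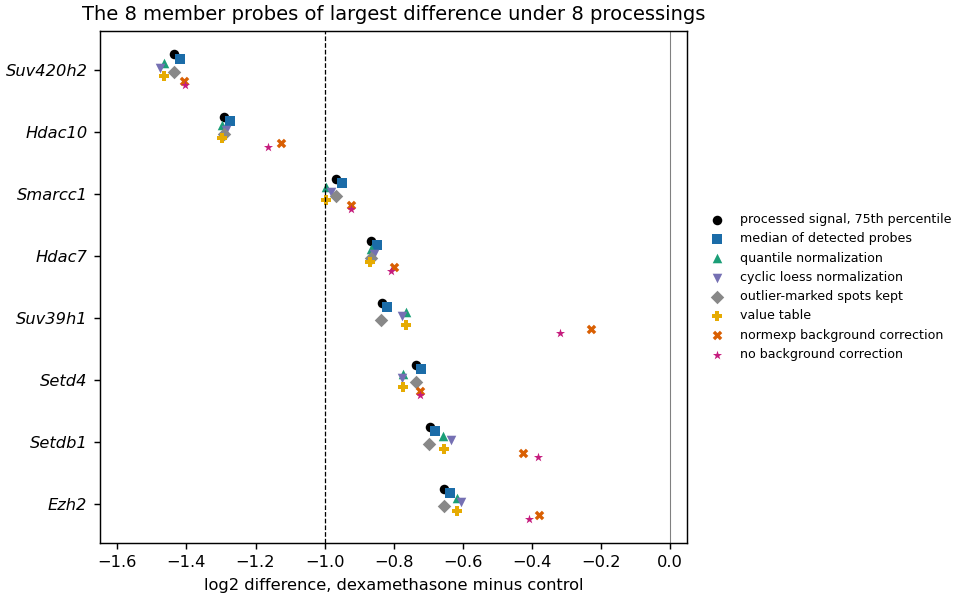
Log2 difference of the 8 member probes of largest absolute difference under 8 processings (symbols); the dashed line is 2-fold lower. Suv420h2 and Hdac10 stay beyond the line under all 8, and the dim probes of Suv39h1, Setdb1 and Ezh2 move toward 0 with normexp or no background correction.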

How the data were processed

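Total RNA was labelled with Cy3 and hybridised to 1-colour Agilent arrays, per the labels' protocols. The deposited spot intensity (processed signal, background-subtracted, linear) comes from Feature Extraction 10.7.1.1 per the file headers, while the submitters' processing notes name 9.5.1.1. Probe positions are rn4 per the file headers. The authors' deposited value table holds intensity with a median of 149.9 in both columns; its scale is linear, and the labels do not state its normalization. Its differences correlated at 0.996 with the scanner differences across probes.

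Outlier-marked spots (267 control, 249 dexamethasone, none of a member) were left out and log2 signals averaged over the spots of a probe. The 75th percentile was then subtracted (1402 and 1477 as signal). Of 30367 probes, 30356 had a value on both arrays. A probe counted as measured if at least 0.5 of its spots were well above background on both arrays, and a gene took its brightest measured probe. Names were updated through RefSeq (GRCr8, names alone): 85 member probes by accession, 21 by current and 5 by older symbol. With 1 array per group a 2-fold size rule replaced a test. The code for differences and calls was run on simulated arrays with set changes well past 2-fold and little noise. That checks the code and does not measure the error of the real values. The 10 alternatives used limma 3.58.1 in R 4.3.3 for normexp (offset 50), quantile and cyclic loess.

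Named genes were those with a probe past 2-fold, the 3 highest and 3 lowest of each family, and those with probes of opposite sign over 0.5 log2 apart. Other members are named to complete their families. The 1 gene past 2-fold among the other chromatin genes is not reported here by name. Kat3 was set apart after its description was read. Members and lists were chosen with earlier results of these data known. Both arrays lay on 1 slide, so array position and group cannot be told apart.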

Additional observations from a re-analysis of the deposited data

How the results depend on the processing

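The counts of members at least 2-fold lower (2 probes, 2 genes) were the same under all 10 alternatives that gave them, with Hdac10 and Suv420h2 as the members each time. The count of member probes at least 2-fold higher was 0, and 1 without the filter on dim probes, which added a Suv39h1 probe below background. The median member difference lay between -0.04 (cyclic loess) and 0.01 (scaling by the median of detected probes). The split of member probes around 0 moved with it. It was 46 above and 62 below with quantile, cyclic loess, normexp and the value table, and 55 and 53 with scaling by the median. The counts of higher and lower genes in each family were not repeated under the alternatives. Of 405 values of 41 named genes under alternatives, 396 moved by less than the software error and 9 by more. Many of the 396 could not move, because changing the filter on dim probes leaves each value as it was. Averaging probes changes only genes with several probes, and keeping outlier-marked spots added no member spot. Among the 9 were Kdm4a, which went from 0.41 to 0.20 with no background correction, and Suv39h2, which went from 0.29 to -0.14 with normexp. The 9 also held Kdm4dl, from 0.18 to -0.05 with normexp, and Smarcc1, from 0.19 to -0.24 when its probes were averaged. With normexp the SD of all differences fell from 0.53 to 0.38 and that of members from 0.33 to 0.27. Of all probes, 1.48% were then at least 2-fold higher and 1.21% lower, near the values without background correction (1.45% and 1.22%). Without a filter on dim probes these shares were 4.56% and 5.29%, and with the stricter filter 2.43% and 2.31%. Low signal limits Suv39h1, Suv39h2, Jmjd4, Kdm4a and Kdm4dl. No paired analysis was possible because each group had 1 array.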

Other observations

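The genes next to Hdac10 were also lower in the dexamethasone array. On rn4 chromosome 7, within 60 kb of the Hdac10 probe (log2 difference -1.29), 10 probes of 7 other genes were well above background. Their median difference was -0.50, and 5 of them were lower by at least 0.5 log2 (10.4% of all probes were). Those 5 were probes of Trabd, Mapk12 and Mapk11 alone, so genes with several probes were counted more than once. Mapk12, a p38-type stress kinase 6.9 kb away, went from a signal of 691 to 446 (-0.71), and was at -0.72 on its other probe. Mapk11, another p38-type kinase 19.9 kb away, went from 418 to 192 (-1.20), and was at -0.81 on its other probe. On the other side Tubgcp6, a component of the gamma-tubulin ring, was at -0.34 and -0.13, Selo at -0.42 and Trabd at -0.59. The outermost genes differed little: Plxnb2 was at -0.03 and Panx2 at 0.19. With normexp the Mapk11 probes were at -1.01 and -0.61 and the Mapk12 probes at -0.64 and -0.36. This stretch was looked at because Hdac10 had been seen to differ, and no test was made of it.

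Around Suv420h2 (-1.44) the neighbours did not differ in this way. On rn4 chromosome 1, 9 probes of 7 genes within 60 kb had a median of 0.09. Cox6b2, a respiratory chain subunit 4.3 kb away, was at 0.13, and Il11, 27.6 kb away, at -0.26.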
